A study of Mus musculus with 15 samples.

Results

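The microRNA change between the embryonic day 7.5 (E7.5) mouse embryo and the neural crest lineage of day 8.5 (E8.5) was measured in animals that lack miR-302. The comparison used 6 of the 15 small RNA libraries of the series, all from miR-302 knockout (KO) embryos of strain C57BL/6. At E7.5 there were 2 libraries, each made from whole embryo. At E8.5 there were 4 libraries of sorted Wnt1-Cre+ cells, labelled as neural crest before and after migration. Wild-type (WT) C57BL/6 libraries of the same kinds, 2 at E7.5 and 3 at E8.5, were used for comparison. Wnt1 drives Cre in dorsal neural tube cells and marks the crest cells that descend from them, so the sorted cells are a part of the embryo, and stage and cell source cannot be told apart. In bulk samples, fewer cells of a type and less RNA per cell cannot be told apart either. The number codes in the library labels also differ between the stages. Whether the libraries of a group came from different litters or animals is not stated, and p-values here cover the spread between libraries only, some of which may be technical. The question was which microRNAs change at this step when miR-302 is missing, and whether the change is like that of WT.

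MicroRNAs are cut from RNA hairpins and repress messenger RNAs through a short seed, bases 2 to 8 of the mature strand. miR-302 and some members of the miR-290-295 cluster share a seed, and both clusters are known for their high expression in pluripotent mouse cells, where they are replaced by other families as lineages form. The miR-17-92 cluster and its paralogs carry a closely related seed and are known for promoting proliferation, while let-7 is known for accumulating with differentiation. The neural crest is a migratory population that gives rise to peripheral nerves, glia, pigment cells and facial skeleton.

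The mature sequences of the families that carried the stage difference are shown first, as RefSeq lists them on GRCm38.p6, 5′ to 3′, with the seed in capitals. The counts are per hairpin, so each line shows the arm that the family is named for, and the arms were not counted apart. The seed of miR-302 is also that of 3 of the 7 miR-290-295 hairpins that fell.
miR-302b-3p: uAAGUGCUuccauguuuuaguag
miR-302d-3p: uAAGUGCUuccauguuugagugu
miR-291a-3p: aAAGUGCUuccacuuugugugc
miR-294-3p: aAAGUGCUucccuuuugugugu
miR-295-3p: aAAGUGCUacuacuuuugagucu

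In the miR-17 family, whose hairpins rose, the same letters sit 1 base further along, so the seed is related and not identical.
miR-17-5p: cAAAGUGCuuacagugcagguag
miR-20a-5p: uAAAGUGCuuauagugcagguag
miR-93-5p: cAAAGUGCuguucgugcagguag
miR-106b-5p: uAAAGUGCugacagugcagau

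The hairpins of miR-92a and miR-92b also rose, while mir-25 and mir-363, matched to the same seed, did not pass. This seed is also that of miR-367, which lies in the same cluster as miR-302.
miR-92a-3p: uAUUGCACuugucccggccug
miR-92b-3p: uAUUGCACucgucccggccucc
miR-367-3p: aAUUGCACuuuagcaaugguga

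Other hairpins on which the results turn have seeds of their own. The first 3 lines below are of hairpins that rose, and the rest are of hairpins that fell.
miR-335-5p: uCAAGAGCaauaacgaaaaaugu
miR-219a-5p: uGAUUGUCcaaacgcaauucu
miR-205-5p: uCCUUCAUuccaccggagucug
miR-182-5p: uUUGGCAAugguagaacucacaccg
miR-183-5p: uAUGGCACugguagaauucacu
miR-7a-5p: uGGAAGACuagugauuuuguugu
miR-21a-5p: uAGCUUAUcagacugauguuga
miR-10b-5p: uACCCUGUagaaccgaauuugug
let-7b-5p: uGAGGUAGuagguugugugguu
let-7i-5p: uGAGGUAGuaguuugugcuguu

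Levels are normalized counts, the reads of a hairpin divided by the size factor of its library. Depth was low and uneven. The E7.5 KO libraries held 24084 and 52362 reads, and the E8.5 KO libraries held 25611, 46082, 1706 and 9757. E8.5 replicate 3 is therefore a shallow library, in which 1 read is worth 19.3 normalized counts and a count of 0 allows up to 58.0. Of 1226 hairpins, 641 had a read in these 6 libraries, and 252 reached 10 normalized counts in at least 2 of them and were tested. Of the 252, 223 matched an entry of the RefSeq microRNA table. The tested hairpins held 98.2% to 99.1% of the reads of each KO library. The libraries also differed within a stage. Across the tested hairpins, Spearman's rho was 0.81 between the E7.5 KO replicates and 0.65 to 0.85 between the E8.5 KO replicates, against 0.32 to 0.67 between stages. Changes are log2 fold changes, E8.5 minus E7.5, on the scale of log2(normalized count + 1). The added 1 understates the change of low hairpins. A 0 in the shallow replicate 3, which allows up to 58.0, is scored as no count and can overstate a fall. The median change of the let-7 hairpins was −4.26 on this scale and −2.41 in edgeR, which models the reads. That of the Sfmbt2 hairpins was −5.11 and −6.65. A hairpin is said to have risen or fallen where the adjusted p of limma was below 0.05.

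The targeted hairpins were near 0 in the KO libraries. The hairpin mir-302b (chromosome 3, 127545228 to 127545301, plus strand, GRCm38.p6, in an intron of Larp7 on the opposite strand) had 4.77 and 7.67 normalized counts in the E7.5 KO libraries and 11.0, 2.14, 19.3 and 0 in E8.5 KO replicates 1 to 4. In WT it had 2154 and 7776 at E7.5 and 3640, 2145 and 3935 at E8.5. Over the 6 KO libraries, mir-302a, mir-302c and mir-302d held 4, 3 and 9 reads, all of them at E7.5, and did not pass the filter. The neighbouring mir-367 (127545733 to 127545807) was kept in KO, with 57.2 and 93.2 normalized counts at E7.5 and 50.5, 6.43, 0 and 18.7 at E8.5. Its stage difference in KO, −2.99 ± 1.19 (SE), had an adjusted p of 0.0666 (limma), and that of mir-302b, −0.43 ± 0.98, had one of 0.769.

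Without miR-302, 87 of the 252 hairpins differed between the stages (34.5% called). Of these, 29 were higher at E8.5 (11.5%) and 58 were lower (23%). At an unadjusted p under 0.05 there were 111. In 111 hairpins (44%) the 4 E8.5 libraries did not overlap with the 2 E7.5 libraries, 36 of them higher at E8.5 (14.3%) and 75 lower (29.8%). Above 0 were 38.1% of the log2 fold changes and below 0 61.9%. The median change of all tested hairpins was −0.59. Scaling to the library sum raised that median by 0.55 and gave 45 higher and 42 lower, so the balance between rises and falls depends on the scaling. No call that was also made in an alternative had the opposite sign there. Among risers with a mean of at least 100 normalized counts at E8.5, mir-92b, mir-335 and mir-20a had the largest changes. The fallers included Sfmbt2 hairpins, mir-145a, mir-146b, mir-143 and the miR-290-295 cluster.

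**Figure D1:**
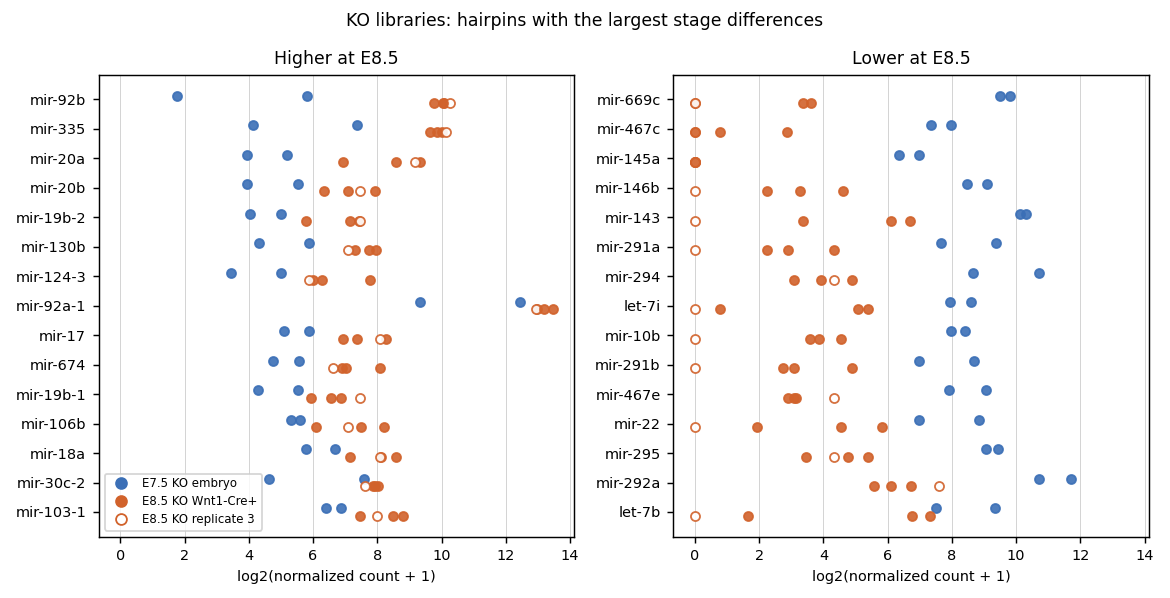
Normalized counts of the 15 highest (left) and 15 lowest (right) log2 fold changes by the naming rule, as log2(normalized count + 1), 1 point per KO library. Blue points are E7.5 embryos, orange points E8.5 Wnt1-Cre+ cells, and the open point is the shallow E8.5 replicate 3. The naming rule took only hairpins in which the stages do not overlap.

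Leaving out the shallow E8.5 replicate 3 gave 36 higher and 55 lower, of which 28 and 53 were among the calls made with it. When the filter was also applied again without it, 242 hairpins remained, and 34 were higher and 55 lower. Some fallers stood at 0 in the shallow library and had a fold change of smaller size without it. The change of mir-291a went from −6.16 to −5.37, that of mir-143 from −6.19 to −4.84, and that of let-7i from −5.45 to −4.51. The change of mir-92b was 6.25 with it and 6.17 without it.

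The miR-290-295 cluster fell in the absence of miR-302. Of its 7 tested hairpins, mir-291a, mir-294 and mir-295 were matched to the seed of miR-302 and the other 4 were not. All 7 tested members of 9 were lower at E8.5, with changes of −3.55 to −6.16 and a median of −4.76 against −0.59 over all tested hairpins. The most read member, mir-292a, had 3339 and 1671 normalized counts at E7.5 and 106, 46.4, 193 and 67.2 at E8.5, a change of −4.71 ± 0.71 (SE; limma adjusted p = 0.00016). In the same cluster, mir-294 (chromosome 7, 3220641 to 3220724, plus strand) had 1690 and 407 at E7.5 and 28.4, 14.3, 19.3 and 7.46 at E8.5, a change of −5.64 ± 0.77 (limma adjusted p = 6.69e-05). For mir-291a the values were 667 and 202 at E7.5 and 18.9, 6.43, 0 and 3.73 at E8.5 (−6.16 ± 1.06, limma adjusted p = 0.000452). This hairpin passed the filter through the E7.5 libraries alone, where it is high, so its test is a description. With only 3 reads over the E8.5 libraries, mir-290a could not have passed on those libraries either. The count of 7 lower is therefore in part a description. In each of the 7, every E8.5 library lay below both E7.5 libraries. Over all tested hairpins this held for 29.8%, and 23% were called lower. All 7 also fell in WT, with a median of −4.0.

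Counted by seed, the 5 hairpins matched to AAGUGCU in RefSeq made up 5.35% and 2.0% of the reads of the E7.5 KO libraries. They made up 0.246%, 0.0998%, 0.176% and 0.102% of the reads of E8.5 KO replicates 1 to 4. In WT the same seed held 6.04% and 20.1% at E7.5 and 11.3%, 7.72% and 11.9% at E8.5. The E8.5 KO cells thus had this seed at a mean of 0.156% ± 0.0695 (SD, n = 4) of reads, against 10.3% ± 2.27 (n = 3) in WT cells, where mir-302b and mir-302d are among the hairpins counted. The ranges of the genotypes did not overlap at E8.5, and at E7.5 the KO shares were also both below the WT shares. Since the sum includes the targeted mir-302b and mir-302d, this gap does not measure the other hairpins with the seed. The hairpins mir-302a and mir-302c are not in this sum, since their matching arms were not among the RefSeq entries used.

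**Figure D2:**
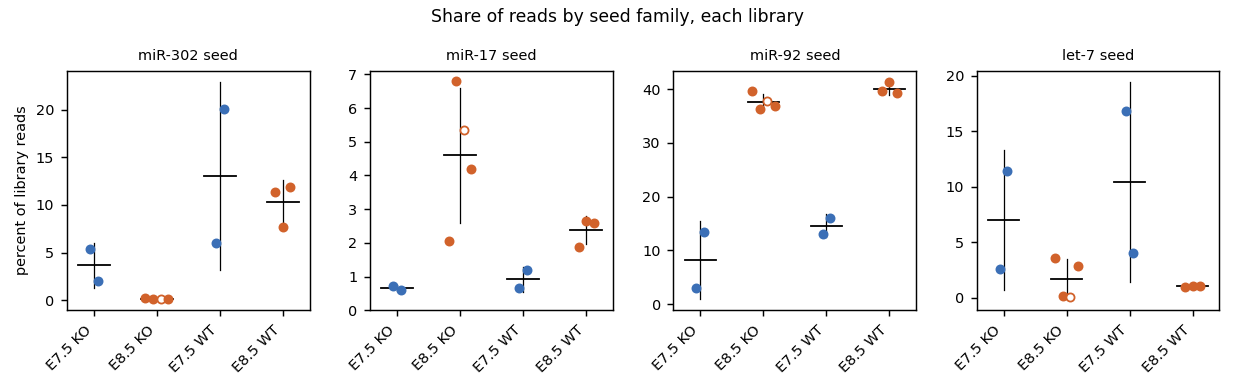
Percent of library reads held by hairpins with each seed, by group and genotype; points are libraries, horizontal bars group means, vertical bars ± 1 SD, and the open point is E8.5 KO replicate 3. The seed that miR-302 shares with miR-291a, miR-294 and miR-295 is at 0.0998% to 0.246% in the 4 E8.5 KO libraries, and the miR-92 seed is at 36.3% to 39.6% in them.

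The miR-17-92 cluster rose. It lies on chromosome 14 within exon sequence of its long noncoding host Mir17hg. Of its 6 hairpins, 5 were higher at E8.5, against 11.5% of all tested hairpins, with a median of 1.98. mir-20a had 14.3 and 35.1 normalized counts at E7.5 and 121, 644, 580 and 381 at E8.5, a change of 3.95 ± 0.66 (limma adjusted p = 0.00037). mir-17 had 33.4 and 57.0 at E7.5 and 121, 305, 271 and 164 at E8.5 (2.18 ± 0.57, limma adjusted p = 0.00872). The E8.5 libraries lay above the E7.5 libraries for both, and E8.5 replicate 1 was the lowest of the 4. mir-18a rose by 1.76 and mir-19b-1 by 1.79, and the call of mir-19b-1 was lost in 16 of 25 alternatives, among them TMM scaling, edgeR and leaving out E8.5 replicate 3. The 6th hairpin, mir-19a, stood at 1.13 with a limma adjusted p of 0.304. None of the 6 passed the test in WT, where their median was 1.26. With E8.5 replicates 2 and 3 left out, or without E7.5 replicate 2, 3 of the 6 passed, as in edgeR.

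By share of reads, mir-92a-1 was the leading hairpin of the E8.5 KO cells. It had 641 and 5520 normalized counts at E7.5 and 11231, 8002, 7792 and 9264 at E8.5, a change of 2.25 ± 0.61 (limma adjusted p = 0.0106), and held 23.6% to 27.8% of the E8.5 reads. The E7.5 replicates differed from each other by more than the E8.5 libraries did. Its X-linked copy mir-92a-2 carries the same mature strand and may share reads with it, and went from 667 and 1666 to 3304, 2753, 3152 and 2783 (1.5 ± 0.37, limma adjusted p = 0.00684). The call of mir-92a-1 was not made in edgeR (adjusted p = 0.0505) or without E8.5 replicates 1 and 4 (limma adjusted p = 0.0532).

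The paralogous clusters moved the same way. Of the 9 hairpins of miR-106a-363 on the X chromosome and miR-106b-25 in Mcm7 on chromosome 5, 6 were higher at E8.5 and none lower. Their median was 1.5 (0.84 in WT), and 11.5% were higher over all tested hairpins. The 6 were mir-106a (3.23), mir-20b (2.47), mir-19b-2 (2.43), mir-106b (1.78), mir-92a-2 and mir-93 (1.17). mir-106a, with 9.53 and 7.67 normalized counts at E7.5, passed the filter through the E8.5 libraries alone, so its rise is a description. The other 3 of the 9 had changes of −0.60 to 0.88, the lowest of them mir-363, with 195 and 193 normalized counts in the embryos against 108 to 155 in the sorted cells. Under TMM scaling 3 of the 9 passed, with E8.5 replicates 2 and 3 left out 2 passed, and without E7.5 replicate 2 it was 1. Summed over the 7 hairpins with the AAAGUGC seed, the family held 0.722% and 0.590% of reads at E7.5 and 2.05%, 6.80%, 5.33% and 4.20% at E8.5 KO, against 1.89% to 2.66% in the E8.5 WT libraries.

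The largest rise was in mir-92b (chromosome 3, 89227116 to 89227198, minus strand), which overlaps no other annotated gene in GENCODE vM21 and carries the seed of miR-92a. It had 2.38 and 54.8 normalized counts at E7.5 and 1069, 860, 1237 and 1048 at E8.5. The change was 6.25 ± 0.78 (limma adjusted p = 3.26e-05), and 1 and 50 reads stood behind the E7.5 values. The hairpin could not have passed the filter on the E7.5 libraries. It passed through the E8.5 libraries alone, where it is high, so its rise is a description. In WT it went from 102 and 195 to 781, 867 and 836, a change of 2.54 (limma adjusted p = 0.0469). The E8.5 levels of the genotypes overlapped, while the KO E7.5 levels were below both WT ones. The difference of the stage changes, 3.71 (95% interval 1.26 to 6.15), had an adjusted p of 0.316 in limma.

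Next among the more abundant risers was mir-335, in an intron of the imprinted gene Mest on chromosome 6 (30741299 to 30741396, plus strand). It had 16.7 and 164 normalized counts at E7.5 and 1030, 918, 1121 and 791 at E8.5, a change of 4.15 ± 0.65 (limma adjusted p = 0.000197). In WT the change was 3.33 (limma adjusted p = 0.00248), with E8.5 levels of 1117, 1225 and 1262. The stages did not overlap in either genotype. mir-674 rose by 2.0 in KO and 1.83 in WT, and mir-130b by 2.42 in KO, where it went from 19.1 and 58.1 to 215, 157, 135 and 250 (limma adjusted p = 0.00107). The WT change of mir-130b was 1.05 with a limma adjusted p of 0.164.

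Among hairpins of neural microRNAs, those of miR-124 and miR-219a rose in KO, and those of miR-9 and miR-128 did not pass. Of 10 tested members of the neural list (miR-9, miR-124, miR-128 and miR-219), 5 were higher and none lower, against 11.5% higher over all tested hairpins. The list median was 1.34 (0.68 in WT). The 5 were the 3 copies of miR-124, the microRNA known from differentiating neurons, and the 2 copies of miR-219a, known from oligodendrocytes. The naming rule did not select miR-219a, which is named after its values were seen. Both of its hairpins passed the filter through the E8.5 libraries alone, where they are high, so their rises are a description. mir-219a-1 had 0 and 1.10 normalized counts at E7.5 and 26.8, 32.9, 58.0 and 56.0 at E8.5 (4.86 ± 0.78, limma adjusted p = 0.000252). mir-219a-2 had no read at E7.5 and 30 reads over the E8.5 libraries, at least 5.66-fold higher with 3 reads as the floor over the E7.5 group. mir-124-2 had 7.15 and 4.38 at E7.5 and 42.6, 48.6, 38.7 and 183 at E8.5 (3.25 ± 0.74, limma adjusted p = 0.00369). mir-124-2 too passed the filter through the E8.5 libraries alone, so its rise is a description. At E7.5, mir-124-1 had 33.4 and 9.86 normalized counts and mir-124-3 had 31.0 and 9.86. These 2 could not have passed on the E7.5 libraries either, so the count of 5 higher is a description. In all 3 miR-124 copies replicate 4 stood far above the rest, and without it 3 of the 10 list members passed. The copies share a mature strand, so they are not independent measurements. The 5 members not called were between −0.62 and 0.55.

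Among hairpins of other cell types, mir-205, known from epithelia and embryonic ectoderm, rose from 0 and 4.38 normalized counts to 30.0, 49.3, 38.7 and 37.3 (4.08 ± 1.03, limma adjusted p = 0.00743), a call that was not made without E7.5 replicate 1. It passed the filter through the E8.5 libraries alone, where it is high, so its rise is a description. The other 5 tested epithelial hairpins, of miR-200 and miR-203 type, had changes of −2.11 to −0.05 and none passed. Of 5 tested miR-30 hairpins, mir-30b and mir-30c-2 were higher, with 11.5% higher over all tested hairpins. Neither call was made with edgeR, with DESeq2 or without E7.5 replicate 1. The hairpin mir-30b had only 9 reads over the E7.5 libraries. It passed the filter through the E8.5 libraries, where it is high, so its rise is a description. In the reference list, whose members are often used to normalise, 1 of 5 rose, against 11.5% of all tested hairpins. This was mir-103-1, an intronic hairpin of Pank3, at 1.55 ± 0.40 (limma adjusted p = 0.00798). Under TMM scaling none of the 5 passed, and with scaling to the library sum 2 did.

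Among the fallers, the hairpins in the introns of Sfmbt2, a repeat family known for expression in trophoblast and placenta, fell in all tested members. The list holds 82 hairpins, 46 with a KO read and 9 tested, and the 9 were lower, with a median of −5.11 (−5.21 with members at 0 set to their bound) and −4.71 in WT. mir-669c had 715 and 896 normalized counts at E7.5 and 0, 9.29, 0 and 11.2 at E8.5, a change of −7.90 ± 1.09 (limma adjusted p = 6.89e-05), the largest fall of all. mir-467c had 162 and 251 at E7.5 and 6.31, 0.715, 0 and 0 at E8.5 (−6.75 ± 0.93, limma adjusted p = 6.69e-05). The whole list summed to 1406 and 2113 in the embryos, against 19.3 to 24.3 in the sorted cells. These hairpins passed the filter through the E7.5 embryos, where they are high, so their count is a description. Over all tested hairpins 23% were lower.

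Of 3 tested hairpins of the vascular list, the smooth muscle pair mir-143 and mir-145a fell, against 23% of all tested hairpins. mir-145a had 126 and 81.1 normalized counts at E7.5 and no read in any E8.5 KO library, at least 74.8-fold lower with 3 reads as the floor of the E8.5 group (fitted change −6.68 ± 0.60, limma adjusted p = 1.21e-06). It passed the filter through the E7.5 libraries alone, so the test is a description. mir-143 had 1120 and 1272 at E7.5 and 103, 9.29, 0 and 67.2 at E8.5 (−6.19 ± 1.38, limma adjusted p = 0.00326). The endothelial mir-126a had a change of 0.56 and did not pass (limma adjusted p = 0.656). The vascular list summed to 1268 and 1426 in the embryos, against 77.3 to 158 in the sorted cells. The share of this list in the change of other hairpins was not tested. The blood list, with mir-451a, mir-144, mir-142, mir-223, mir-150 and mir-486, had no tested member of 7 and 0 to 13 reads in each KO library.

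The sensory organ cluster of miR-183, miR-96 and miR-182 fell in 2 of 3 tested hairpins, against 23% of all tested hairpins. Its median was −2.50 (−1.44 in WT). It held 23.8% and 15.3% of the reads of the E7.5 KO libraries and 2.28% to 4.66% at E8.5. mir-182 had 10480 and 5230 normalized counts at E7.5 and 858, 815, 541 and 373 at E8.5 (−3.59 ± 0.45, limma adjusted p = 3.26e-05). mir-183 had 3158 and 3520 at E7.5 and 1008, 458, 580 and 444 at E8.5 (−2.50 ± 0.43, limma adjusted p = 0.000416). For both, every E8.5 library lay below both E7.5 libraries. mir-96, the third hairpin, had a change of −2.13 and a limma adjusted p of 0.171.

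Several further hairpins fell in each of the alternatives run. mir-7a-1, in an intron of Hnrnpk, went from 975 and 763 normalized counts to 117, 129, 96.7 and 127 (−2.88 ± 0.33, limma adjusted p = 1.33e-05). mir-7a-2 fell by 2.59 on the log2 scale. mir-21a, in exon sequence of Vmp1 and known from growth and stress, went from 1697 and 2966 to 383, 304, 155 and 451 (−2.90 ± 0.56, limma adjusted p = 0.00112). mir-10b, which lies in introns annotated to Hoxd3 and Hoxd4, went from 250 and 336 to 11.0, 13.6, 0 and 22.4 (−5.19 ± 1.20, limma adjusted p = 0.00414), and mir-196b, in Hoxa9, from 28.6 and 89.9 to 1.58, 0, 0 and 0 (−5.36 ± 0.81, limma adjusted p = 0.000157). mir-196b too passed the filter through the E7.5 libraries alone. The third Hox-cluster hairpin tested, mir-10a, had a change of −2.59 and did not pass (limma adjusted p = 0.144).

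The imprinted Dlk1-Dio3 region of chromosome 12 gave few calls. Of 29 tested hairpins of its miR-379/410 group, 4 were lower and none higher, with 23% lower over all tested hairpins. The median was −1.16 against −0.59 over all hairpins. The 4 were mir-379 (−2.15 ± 0.44, limma adjusted p = 0.00188), mir-376b, mir-541 and mir-409. Of the 10 of the Rtl1-antisense group, 1, mir-370, was lower. With scaling to the library sum 1 of the 29 was lower and 2 higher, and without E8.5 replicates 1 and 4 10 were lower. Of 6 hairpins of the cluster of miR-322 and miR-503, mir-351 and mir-322 were lower. mir-541, a leading hairpin of the E7.5 embryos, went from 4061 and 1058 to 595, 778, 464 and 325 (−2.01 ± 0.52, limma adjusted p = 0.00822). mir-5099, also among the most read, went from 2653 and 662 to 520, 1118, 1508 and 328, which overlapped (limma adjusted p = 0.351).

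**Figure D3:**
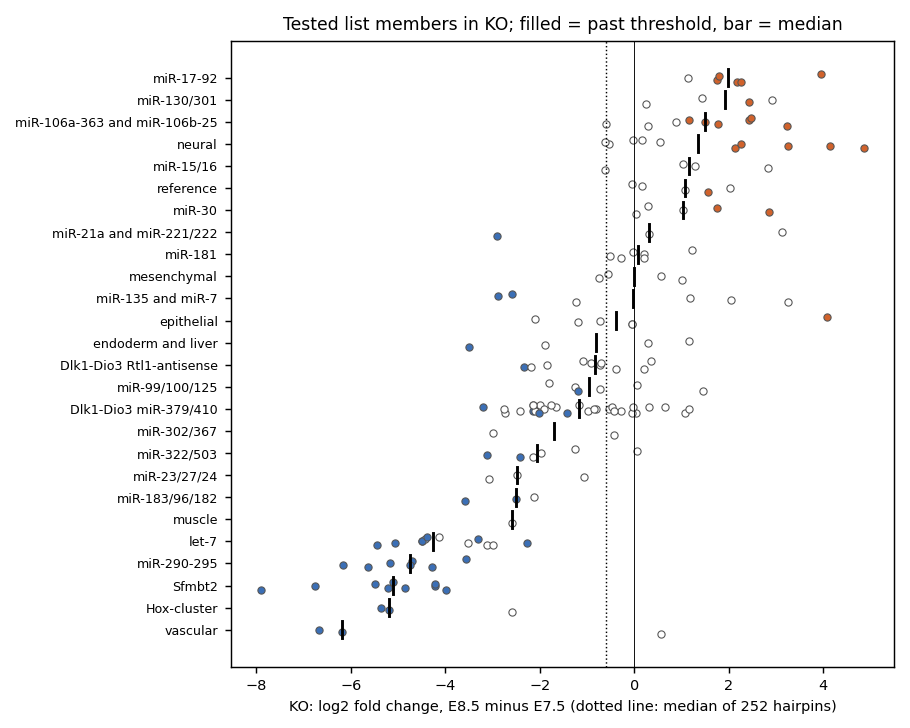
Log2 fold change of each tested list member in KO, E8.5 minus E7.5, with lists ordered by their median (bar). Filled points passed the threshold, orange higher and blue lower, and the dotted line is the median of the 252 tested hairpins, −0.59; the miR-290-295 and Sfmbt2 members are all filled and below 0.

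The let-7 family had a log2 fold change below 0 in each of its 12 tested members, but the libraries did not carry it evenly. Of these 12, from 14 in the table, 7 passed as lower and none higher, with a median of −4.26 (−3.69 in WT, where 2 passed). Over all tested hairpins 23% were lower. The 7 were let-7b, let-7e, let-7f-1, let-7f-2, let-7g, let-7i and mir-98. With 6 reads over the E8.5 libraries, mir-98 passed the filter through the E7.5 libraries alone, so its fall is a description. let-7i had 245 and 382 normalized counts at E7.5 and 33.1, 0.715, 0 and 41.0 at E8.5 (−5.45 ± 1.35, limma adjusted p = 0.00684). let-7b had 181 and 650 at E7.5 and 158, 2.14, 0 and 108 at E8.5 (−4.49 ± 1.64, limma adjusted p = 0.048). The calls of let-7b and let-7f-1 were each lost in 16 of 25 alternatives, and that of let-7f-2 in 14. For let-7f-1 and let-7f-2 the stages overlapped. The E8.5 values were low in replicates 2 and 3, which carry the same code 128 in their labels, and higher in replicates 1 and 4.

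By seed, the family held 2.56% and 11.5% of reads in the E7.5 KO libraries, and 3.62% and 2.87% in E8.5 replicates 1 and 4. In replicates 2 and 3 it held 0.141% and 0.117%, the latter from 2 reads. The E7.5 and E8.5 shares therefore overlapped. Without replicate 3 alone 4 of the 12 were lower, and with scaling to the library sum 2 were. Without replicates 2 and 3, 2 of the 12 were lower and the median was −1.42. Without replicates 1 and 4, all 12 were lower and the median was −6.73. Without E7.5 replicate 2, in which the family was highest, 1 was lower, and without E7.5 replicate 1 it was 4. In WT the E8.5 shares were 0.965%, 1.08% and 1.10%, between the replicate pairs of KO.

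**Figure D4:**
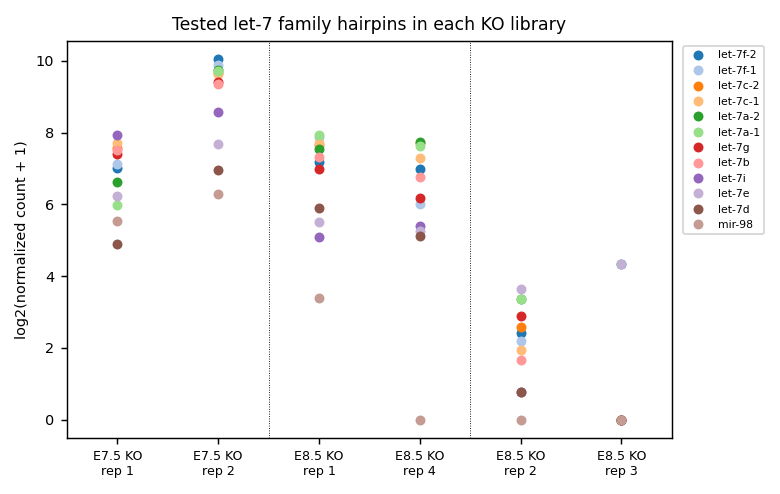
Normalized counts of the 12 tested let-7 family hairpins in each KO library, as log2(normalized count + 1), with the E8.5 libraries ordered as replicates 1 and 4, then 2 and 3. In replicates 2 and 3 all 12 lie below both E7.5 libraries, against 6 of 12 in replicate 1 and 8 of 12 in replicate 4.

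Other lists gave few or no calls. Of 6 tested hairpins of the miR-99, miR-100 and miR-125 families only mir-99b was lower, at −1.20 ± 0.37 (limma adjusted p = 0.0213), and it did not pass in 11 of 25 alternatives. None of 4 miR-15/16, 6 miR-181, 3 miR-23/27/24 and 4 mesenchymal hairpins passed; the miR-15/16 changes ran from −0.63 to 2.83 and those of miR-181 from −0.50 to 1.23. With scaling to the library sum, and without E7.5 replicate 2, 3 of the 4 miR-15/16 hairpins were higher, and library-sum scaling also called 1 mesenchymal hairpin higher. Without E8.5 replicates 1 and 4 all 3 hairpins of miR-23/27/24 were lower, and in edgeR 1 was. Of the endoderm and liver list, mir-122 of 4 was lower, a call lost in 19 of 25 alternatives. The 1 tested muscle hairpin did not pass (limma adjusted p = 0.177).

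The same step in WT gave 47 of 252 hairpins past the threshold (18.7% called), 5 higher and 42 lower, and 30.2% at an unadjusted p under 0.05, with the tests run on the hairpins that passed the filter in KO. The genotypes share no library in these comparisons, but the E7.5 libraries of both carry the label code 239, and E8.5 KO replicate 4 and E8.5 WT replicate 2 both carry 169. 39 hairpins were called in both, which is 44.8% of the KO calls and 83.0% of the WT calls, and all 39 had the same direction, 4 higher and 35 lower. Of the 87 KO calls, 84 had the same sign in WT. The exceptions were mir-103-1, mir-1953 and mir-30c-2. Of all 252 hairpins, 200 had the same sign. Across hairpins, which are not independent, Pearson's r of the 2 sets of changes was 0.83 and Spearman's rho 0.80. The KO change was larger in size than the WT change for 71 of the 87 KO calls, and the WT change was the larger for 23 of the 47 WT calls. Each count is taken over hairpins selected by a call in its own genotype and does not compare the size of the step.

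**Figure D5:**
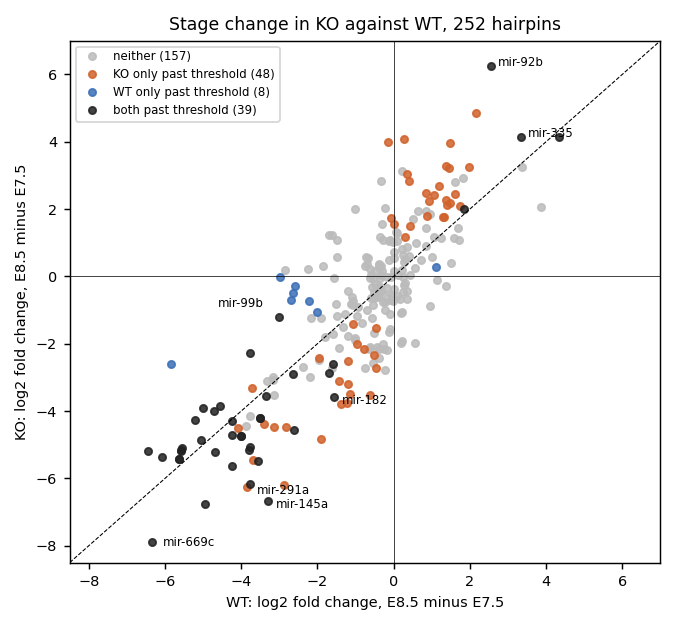
Log2 fold change from E7.5 to E8.5 in KO (vertical) against WT (horizontal) for the 252 tested hairpins; colours show which genotype passed the threshold and the dashed line marks equal change. The hairpins called in both, 39 of 252, lie at the lower left and upper right.

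Whether the step differs between the genotypes was tested directly. No hairpin of 252 passed for the difference between the KO and the WT stage change in limma (0% called, 15, or 5.95%, at an unadjusted p under 0.05), in edgeR (0, with 18) or in DESeq2 (0, with 24). The smallest adjusted p was 0.316, shared by 5 hairpins, mir-145a, mir-3081, mir-99b, mir-92b and mir-1953. The median half-width of the 95% interval of the difference was 2.51 on the log2 scale, so differences of that size were mostly not detectable here. mir-182 had an adjusted p of 0.340 and a difference of −2.03 (95% interval −3.44 to −0.62). For mir-335 the difference was 0.82 (−1.20 to 2.84), for mir-292a −0.45 (−2.69 to 1.78) and for mir-21a −0.26 (−2.0 to 1.49). Leaving out E7.5 KO replicate 2 gave 8 hairpins past the threshold.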

How the data were processed

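Per the submitters' processing notes, STAR 2.7.0f, FastQC 0.11.5 and the mm10 build were used on these small RNA reads. How reads were counted per hairpin, and with which tool the size factors were made, is not given in the sources used here. Each deposited signal value is a normalized count per hairpin, that is, reads divided by a size factor of each library. The authors' values gave whole reads, within 0.001, for 100% of the 6086 values above 0, and those recovered reads gave the depths of 1706 to 52362 reads in the 6 KO libraries. Intervals and floors (3 reads) cover counting error only. The file also holds 1 further per-library column that matches no sample and was not used.

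Hairpins with at least 10 normalized counts in at least 2 of the 6 KO libraries were tested, so hairpins seen in WT alone are left out. The main test was limma 3.58.1 in R 4.3.3 (two-sided, trended variance) on log2(normalized count + 1), with group means for all 15 libraries in 6 groups and Benjamini-Hochberg adjustment over the 252 hairpins. Adjusted p under 0.05 was the threshold. edgeR 4.0.16 (quasi-likelihood) and DESeq2 1.42.0 on recovered reads, other scalings, filters and pseudocounts, and left-out libraries were alternatives. The scripts were tested on simulated data. Hairpin coordinates and sequences are from RefSeq on GRCm38.p6, and host genes from GENCODE vM21.

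Named were the 15 highest and 15 lowest changes among called hairpins without overlap and with a mean of at least 100 in the higher group, the miR-302/367 and miR-290-295 hairpins, up to 4 leading members of each list, hairpins called for the genotype difference, and the 5 most abundant per KO group. Further called members (mir-106a, mir-219a-1, mir-219a-2, mir-30b, mir-376b, let-7e, let-7g, mir-98 and mir-19a below the threshold) were named after their values were seen, and most list members below the threshold are given as ranges. The members and lists were chosen with earlier results of these data known. Numbered copies of a hairpin may share reads, which cannot be checked without the counting method. Of the called hairpins, 21 fall in 11 families of such copies, and counting each family once leaves 77 calls.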

Additional observations from a re-analysis of the deposited data

Results flagged for a closer look

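In the group of 4 E8.5 KO libraries, 93 sets of values were examined for a library far from the rest, by Dixon's ratio of the gap to the range at its 95% critical value. There were 8 such sets, and chance gives about 1 in 20. The 3 copies of miR-124 stood apart through replicate 4, with ratios of 0.858 for mir-124-1, 0.931 for mir-124-2 and 0.878 for mir-124-3. Replicate 4 had 209, 183 and 216 normalized counts of them, against 53.6 to 75.7, 38.7 to 48.6 and 58.0 to 77.3 in the other libraries. The copies share a mature strand, so this is 1 observation rather than 3. The other 5 rest on few reads. mir-196b (ratio 1) was seen in replicate 1 alone, at 1.58 normalized counts, and mir-467d (ratio 1) in replicate 2 alone, at 1.43. mir-467c (0.887) was highest in replicate 1 at 6.31, and mir-467e (0.887) in the shallow replicate 3, where 1 read gives 19.3. The blood list (0.841) was highest in replicate 1, at 0.0273% of reads.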

How the results depend on the processing

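Of the 87 KO calls, 26 (5 higher and 21 lower) were made in each of the 25 alternatives. No call that was also made in an alternative had the opposite sign there. Among the 54 calls selected by the naming rule, none changed sign where tested, whether it passed or not. The KO counts of 29 higher and 58 lower became 45 higher with library-sum scaling, 14 higher when only the groups compared were fitted, and 38 lower with a minimum of 50. Leaving out each library in turn gave 22 to 36 higher and 44 to 71 lower. The WT count of 5 higher became 15 with library-sum scaling, 3 with no filter, 3 with a minimum of 50, 11 with only the groups compared, 13 with array weights, 9 in edgeR, 12 in DESeq2, 10 without E8.5 KO replicate 3 and the filter applied again, and 9 in edgeR without that replicate. Its range over left-out libraries was 0 (without E7.5 WT replicate 1) to 8. The WT count of 42 lower became 22 with a minimum of 50, 70 with only the groups compared, and 66 in edgeR, in DESeq2 and in edgeR without E8.5 KO replicate 3, with 28 to 55 over left-out libraries. The genotype difference, called for 0 hairpins, was called for 3 with no filter, 1 without E8.5 KO replicates 1 and 4, and 0 to 8 over left-out libraries, the 8 without E7.5 KO replicate 2.

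Some values below the threshold changed sign. That of mir-302b, −0.43, became 0.0346 with a pseudocount of 10, 0.0043 with the replicate block, 0.18 without E8.5 KO replicates 1 and 4 and 0.37 without replicate 4, in a range of −1.075 to 0.374 over left-out libraries. That of mir-363 became 0.0829 with library-sum scaling, and that of mir-5099 0.15 without E7.5 KO replicate 1, in a range of −1.85 to 0.15. The log2 ratio of mean shares became −0.62 for the epithelial list and −0.0889 for miR-181 with normalized counts in place of shares. The cause was not tested. The stages share only 2 replicate numbers, and same-numbered KO libraries deviated from their group means with correlations of −0.21 and −0.09, so the numbers were not taken as pairs. With the replicate block, 20 were higher and 47 lower in KO, and 5 and 35 in WT. Depth limits low hairpins most in E8.5 KO replicate 3, with 1706 reads.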

Other observations

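A stretch of the X chromosome (66801508 to 66839125, GRCm38.p6), with mir-878, mir-871, mir-470 and copies of miR-465, was read in the E7.5 KO embryos and in no E8.5 KO library. It was picked out after its values were seen. Its 8 tested hairpins held 298 reads at E7.5, at 11.9 to 57.2 normalized counts, and 0 reads at E8.5. With 3 reads as the most that a count of 0 allows in the E8.5 group, they were at least 11.8-fold to at least 30.6-fold lower. All 8 passed the limma threshold in KO (fitted changes of −5.42 to −3.91) and in WT (−5.62 to −2.62), where the E8.5 values were also 0. They passed the filter through the E7.5 libraries, and the copies may share reads.

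Both mir-1953 and mir-3081 were higher at E8.5 in KO and near 0 in WT at both stages. Both passed the filter only with the shallow E8.5 KO replicate 3, where they held 4 reads and 1 read, and were not tested when the filter was applied without it. mir-1953 had 0 and 1.10 normalized counts at E7.5 KO and 9.46, 9.29, 77.3 and 33.6 at E8.5 KO, a change of 4.0 ± 0.88 (limma adjusted p = 0.00314), and at most 1.69 in the 5 WT libraries. mir-3081 had 0 in both E7.5 KO libraries and 3.15, 10.7, 19.3 and 3.73 at E8.5 KO (limma adjusted p = 0.000496). The genotype differences had an adjusted p of 0.316 in limma and did not pass.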
